A study of Mus musculus with 4 samples.

Results

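The 10 genes studied here belong to fibroblast growth factor (Fgf) signalling and were followed across the cell types of the newborn mouse oviduct and uterus: the ligands Fgf1, Fgf7, Fgf9 and Fgf10, the receptors Fgfr1, Fgfr2 and Fgfr4, and the feedback genes Spry2, Spry4 and Dusp6. They were chosen by symbol, with earlier results of these data known, and all 10 were found among the 31053 genes of the count matrices. Oviducts and uteri came from untreated wild-type CD1 mice at postnatal day 3. Each organ has 2 single-cell libraries, which came from pools of 3 and 4 neonates. The series text gives the same neonates for both organs and does not say which pool is which replicate. Collagenase B, Dispase II and DNase I freed the cells, which were captured with the 10x Genomics Chromium droplet chemistry, which counts molecules by unique molecular identifiers (UMIs) at the 3' end of transcripts. Since nothing more is known of how the pools were split, p-values measure the spread between 2 libraries per organ.

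Fgf ligands are secreted proteins that bind receptor tyrosine kinases together with heparan sulphate on the cell surface. Receptor activation runs through Ras and ERK, switches on ETS transcription factors such as Etv4 and Etv5, and induces its own inhibitors: Sprouty proteins such as Spry2 and Spry4 act upstream in the cascade, and Dusp6 removes phosphate from ERK. In many developing organs Fgf7 and Fgf10 come from the mesenchyme and act on an epithelial splice form of Fgfr2, whereas Fgf9 comes from epithelium or mesothelium and acts on mesenchymal receptor forms. Both organs studied arise from the Müllerian duct, whose simple epithelium is wrapped in mesenchyme. Counts at the 3' end do not tell the splice forms of a receptor apart.

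The libraries held 7808 and 6773 barcodes for the oviduct and 5716 and 6322 for the uterus, of which 6537, 5567, 3926 and 4345 cells were kept. Filters on genes and mitochondrial UMIs removed between 11.4 and 29.0% of barcodes, more in both uterine libraries than in the oviductal ones. Pairs of libraries shared 8 to 15 barcodes, of which 5 to 10 were kept cells in both. Marker genes of 14 classes were used to place the cells, and 7 of the classes were compared. Cells between mesenchyme and muscle were in none of the 7. They made up 14.3 and 13.9% of the kept oviductal cells and 20.8 and 19.9% of the kept uterine cells. In the order oviduct 1, oviduct 2, uterus 1, uterus 2, the mesenchyme had 3221, 2529, 1527 and 1505 cells and the epithelium 149, 247, 57 and 77. The epithelial cells of the uterus were shallow, with median UMIs of 5084 and 1941 against 19593 and 15072 in the oviduct. The 8 epithelial markers summed to between 2277 and 2717 CPM (UMIs of a gene per 1000000 UMIs of its class and library) in the epithelium and to between 18.9 and 23.4 in the mesenchyme. The 8 mesenchymal markers summed to 9500 and 9763 CPM in the mesenchyme of the oviduct and to 3589 and 3488 CPM in that of the uterus. The class called smooth muscle also carried mesenchymal markers, at summed levels of 4260 to 5557 CPM, and so did the mesothelium, at 6954 and 6178 CPM in the oviduct and 10989 and 8900 CPM in the uterus. The samples are labelled as mesenchymal and epithelial cells, but muscle, mesothelium, pericytes, blood endothelium, myeloid and erythroid cells were present too.

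The mesenchymal ligands Fgf10 and Fgf7 were higher in the oviduct, by 4.02 and 3.91 on the log2 scale in mesenchyme and by 4.79 and 2.92 in smooth muscle. The receptor Fgfr2 was higher in the uterus in epithelium, mesothelium, mesenchyme and smooth muscle. Fgf1 was higher in oviductal than in uterine epithelium by 4.23, and Spry2 by 2.57. Fgf9 and Fgf1 were highest in the mesothelium of both organs.

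The sequences shown here are the 250 bases upstream of the RefSeq start of Fgf10, Fgf7 and Fgfr4 (RefSeq tables, GRCm38.p6 build, plus strand for all 3). Fgf10 and Fgf7 were higher in oviductal mesenchyme and smooth muscle. Fgfr4 was higher in uterine mesenchyme, the only class where it was tested between organs, on 16 oviductal and 84 uterine UMIs. The windows were searched for 4 motifs on both strands: the ETS core CCGGAA, the GC box GGGCGG, the TATA box TATAAA and the cyclic AMP element TGACGTCA. Matches are in capitals.
Fgf10, chr13:118714449-118714698: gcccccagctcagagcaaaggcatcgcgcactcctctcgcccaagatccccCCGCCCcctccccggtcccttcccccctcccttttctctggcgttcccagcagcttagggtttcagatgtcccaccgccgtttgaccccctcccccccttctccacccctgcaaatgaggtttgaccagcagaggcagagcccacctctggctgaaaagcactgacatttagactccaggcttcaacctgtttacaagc
Fgf7, chr2:126034408-126034657: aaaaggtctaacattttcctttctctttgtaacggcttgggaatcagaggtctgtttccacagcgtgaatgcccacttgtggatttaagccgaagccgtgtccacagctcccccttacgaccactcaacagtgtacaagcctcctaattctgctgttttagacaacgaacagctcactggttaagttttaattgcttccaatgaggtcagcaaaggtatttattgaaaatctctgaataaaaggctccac
Fgfr4, chr13:55152568-55152817: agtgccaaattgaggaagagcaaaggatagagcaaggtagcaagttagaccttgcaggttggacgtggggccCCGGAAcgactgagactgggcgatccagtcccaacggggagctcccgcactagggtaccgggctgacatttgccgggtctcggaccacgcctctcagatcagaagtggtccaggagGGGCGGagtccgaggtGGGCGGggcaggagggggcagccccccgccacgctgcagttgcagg
The Fgf10 window held 1 GC box and the Fgf7 window no match. Fgfr4 held 1 ETS core and 2 GC boxes. Among 27025 promoters of this length, 12.2% held the ETS core, 32.9% the GC box, 13.0% the TATA box and 1.62% the cyclic AMP element. G and C made up 61.2% of the Fgf10 window and 43.6% of the Fgf7 window, beside a median of 52% over all promoters. The windows of Fgf9, Fgfr2, Spry2 and Dusp6 held none of the 4 motifs, and windows of 7 of the 10 genes were searched. The Fgf9 window (chr14:58072436-58072685) lay inside the gene span given below.

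Fgf10 (ENSMUSG00000021732, chr13:118714699-118792573), a ligand required for the outgrowth of branching epithelia, had 24.2 and 25.7 CPM in oviductal mesenchyme and 1.47 and 1.46 CPM in uterine mesenchyme. Both oviductal libraries lay far above both uterine ones. Fgf7 (ENSMUSG00000027208, chr2:126034658-126091185), its close relative, had 24.4 and 22.5 CPM in oviductal mesenchyme and 1.90 and 1.09 CPM in the uterus, again without overlap. The log2 fold change, oviduct minus uterus, was 4.02 ± 0.13 (SE) for Fgf10 (adjusted p = 1.02e-10) and 3.91 ± 0.17 for Fgf7 (adjusted p = 1.17e-09, both edgeR quasi-likelihood test, Benjamini-Hochberg over all genes tested). Of the 15 mesenchymal clusters, 13 drew at least 90% of their cells from 1 organ, so different clusters held most of the class in the oviduct and in the uterus. Free RNA, estimated from empty droplets, could account for at most 3.02% of Fgf10 counts and 2.56% of Fgf7 counts in the oviductal mesenchyme.

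Both genes were also higher in oviductal than in uterine smooth muscle. The clusters named smooth muscle were also split by organ, counting cells of any marker class. Cluster 1 had 997 and 924 oviductal and 2 and 8 uterine cells, and cluster 4 had 14 and 32 oviductal and 587 and 572 uterine cells. Of the cells in the muscle class, 1860 fell in these clusters and 1373 in mesenchymal ones. Fgf10 had 21.6 and 28.8 CPM in the oviductal muscle class and 0.712 and 1.05 CPM in the uterine one (log2 fold change 4.79 ± 0.25, adjusted p = 2.86e-08, edgeR). It needed the oviductal libraries to pass the filter on low counts there. Fgf7 had 31.9 and 36.5 CPM in oviductal muscle and 4.19 and 4.71 CPM in uterine muscle (2.92 ± 0.14, adjusted p = 2.02e-08, edgeR). Because the muscle class holds cells that cluster with mesenchyme, the cells whose marker class and cluster agreed were also tested, a choice made after seeing the data: Fgf10 then differed by 4.23 and Fgf7 by 2.70 on the log2 scale, with adjusted p of 4.2e-08 and 2.4e-08 (edgeR). With cells picked by cluster the differences were 4.12 and 2.67.

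Fgf10 had 0 UMIs in the epithelium of all 4 libraries. Over both libraries of an organ, 3 UMIs would have been 0.188 CPM in the oviduct and 0.864 CPM in the uterus, so mesenchymal Fgf10 was at least 131-fold higher than epithelial Fgf10 in the oviduct and at least 1.69-fold higher in the uterus (3 counts over both libraries). Fgf7 had 4 epithelial UMIs in the oviduct, and its mesenchymal level was 94.1 times the epithelial one (95% exact interval 36.7 to 346, counting error only). Free RNA could account for up to 56.9% of the 3 UMIs in oviduct 1 and 99.1% of the 1 UMI in oviduct 2. In the uterus 1 epithelial UMI gave a ratio of 5.16 (0.893 to 207). In mesothelium Fgf10 had 2.75 and 3.43 CPM in the oviduct and 0 UMIs in the uterus, so its oviductal level was at least 2.84-fold higher (3 counts over both libraries). Its call there (adjusted p = 0.0385, edgeR) was lost without uterus replicate 1 (adjusted p = 0.052) or uterus replicate 2 (adjusted p = 0.15). It was not tested without oviduct replicate 1 or without oviduct replicate 2, and DESeq2 gave it no adjusted p. Free RNA could account for up to 38.5% of the oviductal counts.

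Cells with a UMI of Fgf10 made up 11.1 and 10.7% of oviductal mesenchymal cells and 1.02 and 0.662% of uterine ones, after each cell was thinned to 5000 UMIs. For Fgf7 the thinned shares were 10.4 and 9.72% of oviductal cells and 1.10 and 0.441% of uterine cells. Unthinned, the means were 19.8 and 1.72% for Fgf10 and 18.5 and 1.84% for Fgf7. Thinning left out 277, 430, 158 and 145 shallower cells. In epithelium the thinned share was 0% in all 4 libraries for both genes, with 104, 162, 29 and 24 cells left. Upper 95% Wilson limits were 3.56, 2.32, 11.7 and 13.8%. They bound the share of cells with a UMI at this depth, not the share that expresses the gene. Unthinned, the epithelial means of Fgf7 were 1.21% in the oviduct and 0.649% in the uterus. In blood endothelium the mean thinned share was 0.368% in the oviduct and 0% in the uterus for Fgf10, and 0.368 and 0.388% for Fgf7. An exact permutation test over 2 against 2 libraries cannot go below p = 0.33, the value obtained for both genes in mesenchyme. In oviduct 1, 19.3% of cells with an Fgf10 UMI also had one of Fgf7, beside 9.25% of the other cells. In oviduct 2 the shares were 10.7 and 9.60%, in the same order but closer together. In the uterus none of the 14 and 9 cells with an Fgf10 UMI had one of Fgf7, beside 1.11 and 0.444% of the other cells. None of these differences was tested.

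**Figure D1:**
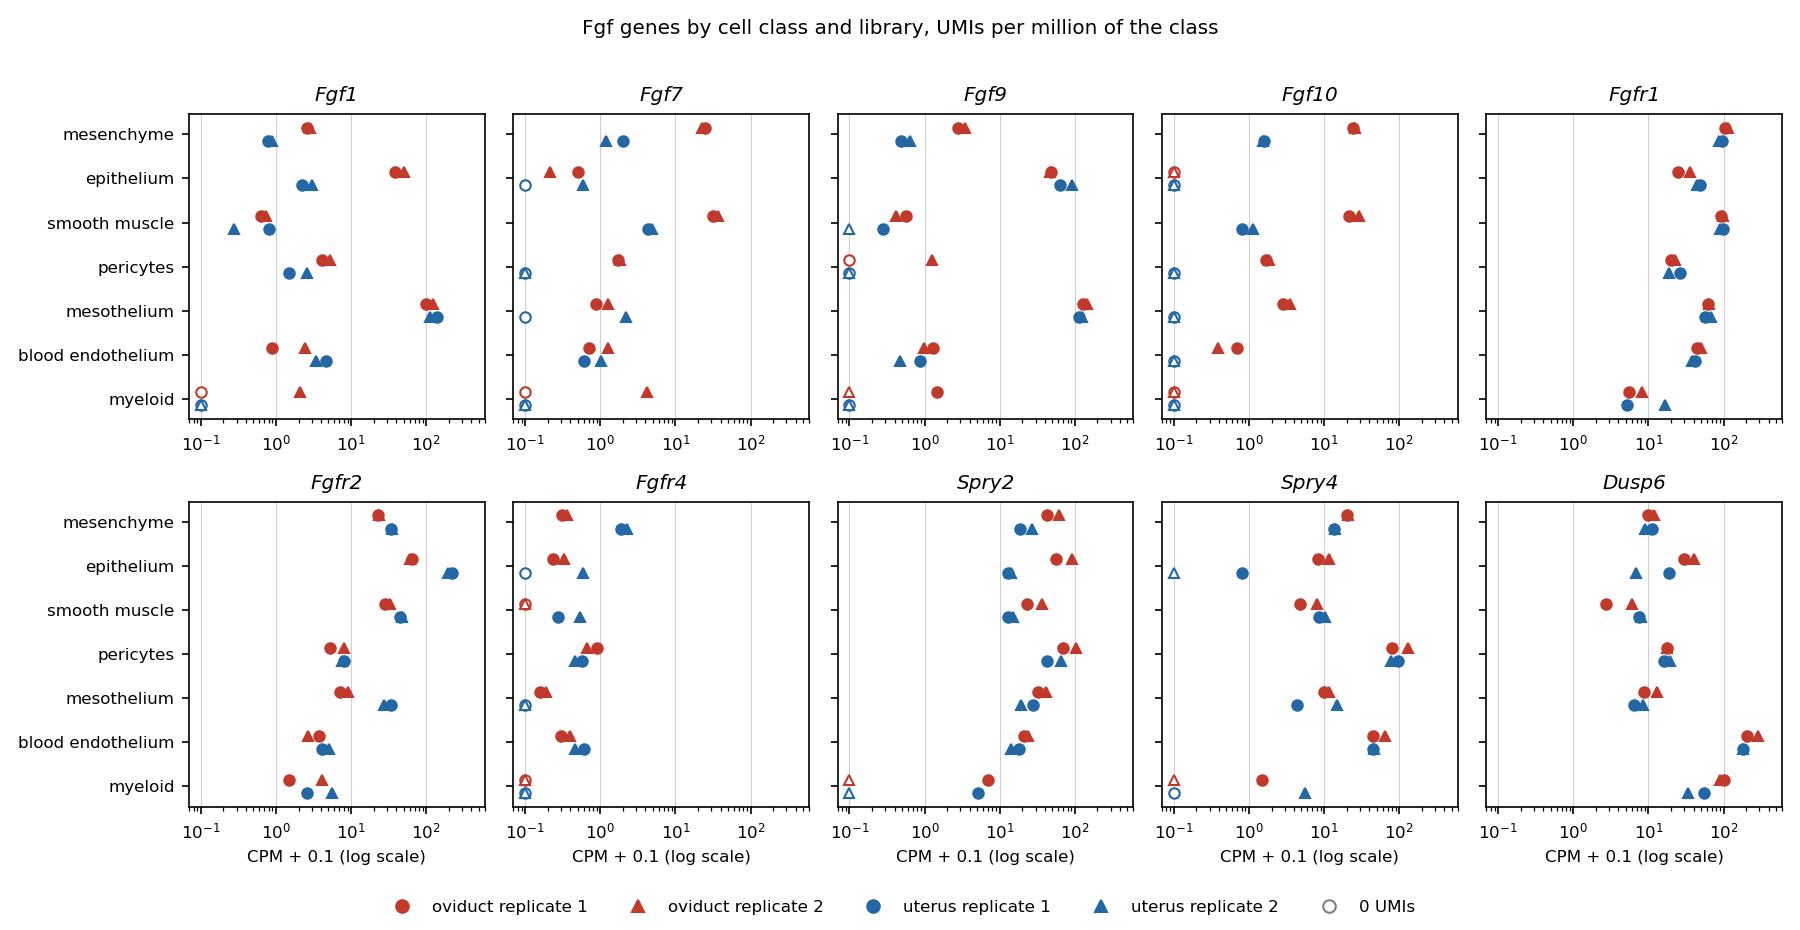
Level of each of the 10 genes (CPM + 0.1, log axis) in the 7 cell classes, with 1 point per library: red for oviduct, blue for uterus, circles for replicate 1, triangles for replicate 2, open symbols for 0 UMIs. Fgf10 and Fgf7 lie near 25 CPM in oviductal mesenchyme and near 1.5 CPM in uterine mesenchyme, and Fgfr2 peaks in uterine epithelium.

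Within the mesenchyme the 2 ligands varied between clusters, which were made without any gene of the Fgf lists. Cluster 5, led by Pthlh, Fibin and Aldh1a1 and made of oviductal cells alone, had 47.0 and 47.9 CPM of Fgf10 and 52.1 and 50.5 CPM of Fgf7. Cluster 6, led by Angptl7 and Zim1, had 3.11 and 3.58 CPM of Fgf10 and 6.47 and 4.94 CPM of Fgf7 in the oviduct. Cluster 8, led by the neurofilament genes Nefm and Nefl, held cells of both organs. Its uterine cells had 20.9 and 19.3 CPM of Fgf7 but 1.40 and 1.49 CPM of Fgf10, and its oviductal cells had 13.2 and 18.4 CPM of Fgf7 and 18.5 and 25.1 CPM of Fgf10. Fgf7 was thus not higher in the oviductal than in the uterine cells of this cluster. Those uterine cells numbered 53 and 43, and the median depth of the whole cluster was 12522 UMIs, so their Fgf10 levels rest on very few UMIs. This is a description of clusters, with no test.

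**Figure D2:**
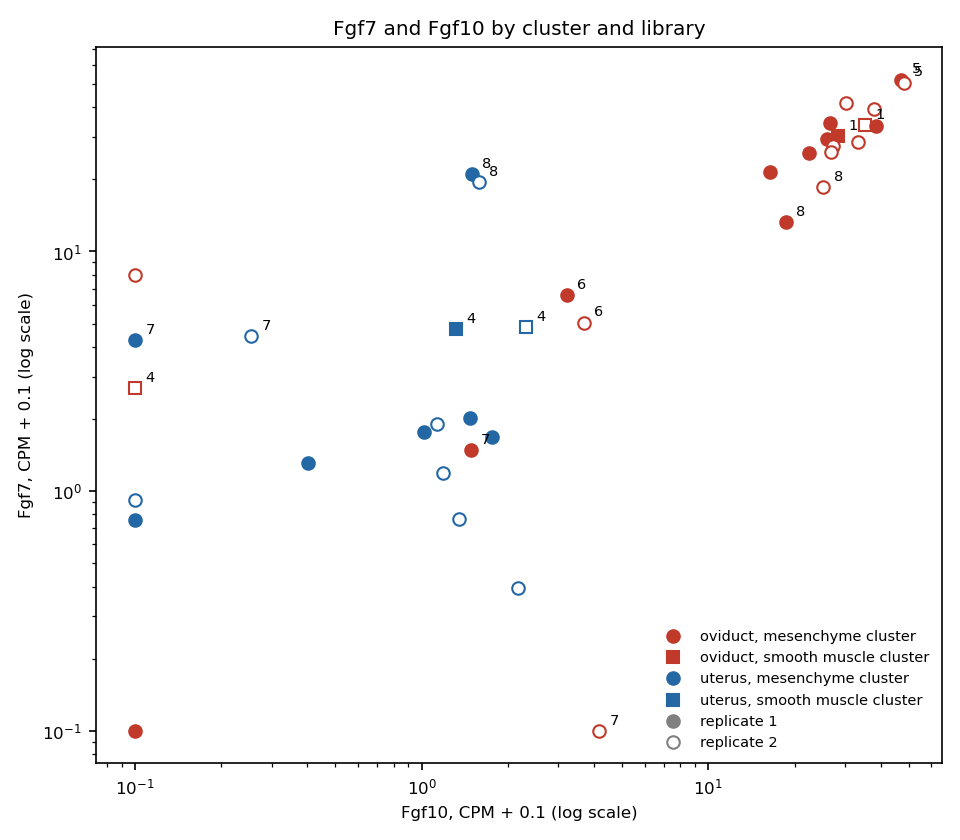
Fgf10 (x axis) against Fgf7 (y axis), both as CPM + 0.1 on log axes, for each mesenchymal (circles) and smooth muscle (squares) cluster with at least 20 cells in a library, 1 point per library, red for oviduct and blue for uterus, filled for replicate 1 and open for replicate 2. Numbers name clusters 1, 4, 5, 6, 7 and 8. The uterine points of cluster 8, from 53 and 43 cells, stand at 20.9 and 19.3 CPM of Fgf7 with 1.40 and 1.49 CPM of Fgf10, which rest on very few UMIs. Cluster 9, of shallow cells, is not drawn.

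Fgf9 (ENSMUSG00000021974, chr14:58070671-58112854), which in many organs signals from lining cells to mesenchyme, was highest in mesothelium, the lining of the organ's outer surface. Its mesothelial level was 127 and 146 CPM in the oviduct and 113 and 124 CPM in the uterus, and the organ difference did not pass the test (0.21 ± 0.13, adjusted p = 0.44, edgeR). In epithelium Fgf9 had 47.6 and 47.2 CPM in the oviduct and 64.0 and 92.7 CPM in the uterus. The organs did not overlap, and the difference of -0.61 ± 0.20 had an adjusted p of 0.0394 (edgeR). The call was lost with DESeq2, with the replicate number as a block (-0.58, adjusted p = 0.10), which assumes that same-numbered libraries share a pool, and without oviduct replicate 1 (-0.60), oviduct replicate 2 (-0.60) or uterus replicate 2 (-0.26). In mesenchyme Fgf9 had 2.71 and 3.35 CPM in the oviduct and 0.391 and 0.547 CPM in the uterus. It needed the oviductal libraries to pass the filter on low counts there. Free RNA could account for up to 34.7% of the oviductal and 37.8% of the uterine counts. The 8 mesothelial markers were also higher in the oviductal mesenchyme class, with summed levels of 161 and 145 CPM against 46.8 and 42.2 CPM. The class difference of 2.59 ± 0.31 (adjusted p = 1.74e-05, edgeR) fell to 0.86 (adjusted p = 0.11) over the cells whose class and cluster agreed, an alternative added after seeing the data, and to 1.16 (adjusted p = 0.034) with cells picked by cluster, where it was still called.

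Fgf1 (ENSMUSG00000036585), a ligand that binds all the Fgf receptors, showed the same mesothelial peak, with 98.6 and 124 CPM in the oviduct and 138 and 112 CPM in the uterus, and these libraries overlapped. In epithelium it had 38.4 and 51.1 CPM in the oviduct and 2.11 and 2.93 CPM in the uterus, where the counts were 3 and 6 UMIs. The organs did not overlap, and the log2 fold change was 4.23 ± 0.35 (adjusted p = 1.03e-06, edgeR). Fgf1 needed the oviductal libraries to pass the filter on low counts there. The ratio of pooled counts was 17.4 (95% exact interval 9.14 to 38.3, counting error only). Epithelial cells fell into 3 clusters, of which 1 held oviductal cells alone. That one, cluster 23, led by Plet1, had 88 and 157 cells and 44.4 and 51.6 CPM of Fgf1. Cluster 21, led by Wfdc15b and made of shallow cells, had 49 and 175 oviductal and 52 and 112 uterine cells, with 4 and 16 oviductal UMIs of Fgf1 (19.8 and 34.0 CPM) beside 0 and 1 uterine UMIs. Cluster 24, led by Msx1, held cells of both organs and had 6.67 and 18.7 CPM in the oviduct and 2.15 and 2.54 CPM in the uterus. In mesenchyme the Fgf1 difference of 1.76 ± 0.27 (adjusted p = 0.00018, edgeR) fell to 0.40 (adjusted p = 0.36) over cells whose class and cluster agreed, at 1.06 and 1.01 CPM in the oviduct and 0.704 and 0.806 CPM in the uterus, and to 0.51 (adjusted p = 0.15) with cells picked by cluster. Free RNA could account for up to 34.8 and 40.4% of the oviductal Fgf1 counts in the mesenchyme class and up to 18.3 and 17.8% of the uterine ones. With free RNA subtracted the mesenchymal difference was 1.41 (adjusted p = 0.0037, edgeR).

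Fgfr2 (ENSMUSG00000030849, chr7:130162451-130266808), the receptor of Fgf7 and Fgf10 in its epithelial form, had 64.2 and 61.2 CPM in oviductal epithelium and 217 and 197 CPM in uterine epithelium. The organs did not overlap, and the log2 fold change was -1.59 ± 0.17 (adjusted p = 1.16e-05, edgeR). Cluster 24, in which both organs had epithelial cells, showed the same order, with 131 and 137 CPM in the oviduct and 222 and 200 CPM in the uterus. In mesothelium Fgfr2 had 7.12 and 9.03 CPM in the oviduct and 34.0 and 27.6 CPM in the uterus (-1.94 ± 0.23, adjusted p = 0.00061, edgeR). In mesenchyme it had 23.1 and 23.3 CPM in the oviduct and 34.1 and 34.8 CPM in the uterus (-0.64 ± 0.08, adjusted p = 3.89e-05, edgeR), and in smooth muscle it had 28.4 and 32.5 CPM against 44.9 and 48.1 CPM (-0.63 ± 0.10, adjusted p = 0.000604, edgeR). In each of these classes every uterine library lay above both oviductal ones.

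Fgfr1 (ENSMUSG00000031565, chr8:25518759-25575718), a receptor typical of mesenchymal cells, had 105 and 114 CPM in oviductal mesenchyme and 94.7 and 86.8 CPM in uterine mesenchyme. It was not called there (0.20 ± 0.08, adjusted p = 0.0574, edgeR), nor in smooth muscle, where levels of 92.0 and 98.7 CPM overlapped with 99.1 and 89.6 CPM. In epithelium the oviductal libraries had 24.8 and 35.4 CPM and the uterine ones 48.5 and 44.4 CPM, with a difference that missed the test (-0.48 ± 0.22, adjusted p = 0.13, edgeR). It was called without oviduct replicate 2 (-0.76, adjusted p = 0.0499, edgeR). Fgfr4 (ENSMUSG00000005320, chr13:55152818-55168759) was scarce, with 9 and 7 UMIs in oviductal mesenchyme and 37 and 47 UMIs in uterine mesenchyme. These counts are 0.214 and 0.261 CPM against 1.81 and 2.14 CPM, and the log2 fold change was -3.13 ± 0.35 (adjusted p = 1.10e-05, edgeR). Fgfr4 passed the filter on low counts through the uterus only. Uterine cluster 20, led by Pcdh10 and A2m, had 5.25 and 4.09 CPM of Fgfr4, the highest of the uterine mesenchymal clusters other than the shallow cluster 9.

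Spry2 (ENSMUSG00000022114, chr14:105891947-105896819), an inhibitor of receptor tyrosine kinase signalling, had 55.2 and 91.4 CPM in oviductal epithelium and 12.7 and 14.1 CPM in uterine epithelium, with a log2 fold change of 2.57 ± 0.29 (adjusted p = 1.82e-05, edgeR). It was also higher in oviductal mesenchyme, at 43.0 and 61.8 CPM against 18.8 and 26.5 CPM (1.13 ± 0.17, adjusted p = 0.00013, edgeR), and in oviductal smooth muscle, at 22.8 and 36.7 CPM against 12.8 and 15.01 CPM (1.06 ± 0.19, adjusted p = 0.0011, edgeR). With cells picked by cluster the muscle difference was 1.90. In pericytes, the mural cells of small vessels, Spry2 had 68.8 and 103 CPM in the oviduct and 42.3 and 65.3 CPM in the uterus. It was not called there (0.58 ± 0.20, adjusted p = 0.11, edgeR). The difference was called with the replicate number as a block (0.63), without the filter on low counts (0.59), without oviduct replicate 1 (0.84) and without uterus replicate 2 (0.97), and it was 0.31 and 0.32 when oviduct replicate 2 or uterus replicate 1 was left out. In mesothelium it had 32.1 and 41.4 CPM in oviductal and 27.6 and 19.1 CPM in uterine cells, without overlap, and was not called (0.65 ± 0.23, adjusted p = 0.13, edgeR). There the call was gained with the replicate block (0.64), with cells picked by cluster (0.71), without the filter (0.69), and when oviduct replicate 1 (0.83) or uterus replicate 1 (0.94) was left out. Free RNA could account for up to 28.2 and 13.8% of the oviductal and 14.8 and 11.7% of the uterine counts.

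Spry4 (ENSMUSG00000024427), a second Sprouty inhibitor, peaked in pericytes, at 81.2 and 132 CPM in the oviduct and 95.3 and 78.4 CPM in the uterus, where the organs overlapped. It was called in pericytes without oviduct replicate 1 (0.54). In blood endothelium it had 44.3 and 65.0 CPM in the oviduct and 44.0 and 46.1 CPM in the uterus, again with overlap. In mesenchyme it had 19.9 and 20.4 CPM in the oviduct and 13.4 and 14.0 CPM in the uterus (0.49 ± 0.09, adjusted p = 0.00078, edgeR). That call was lost when cells were picked by cluster (0.21, adjusted p = 0.077). In smooth muscle Spry4 had 4.68 and 7.98 CPM in the oviduct and 8.55 and 10.2 CPM in the uterus, lower in both oviductal libraries, and was not called (-0.61 ± 0.23, adjusted p = 0.064, edgeR). There it was called with the replicate block (-0.61), with free RNA subtracted (-0.67), without oviduct replicate 2 (-1.01) and without uterus replicate 1 (-0.75), while cells picked by cluster gave 0.072. In epithelium 159 UMIs in the oviduct faced 1 UMI in the uterus, and the ratio of levels was 34.7 (95% exact interval 6.13 to 1378, counting error only). Free RNA could account for up to 62.9% of that uterine UMI. The fitted log2 fold change of 5.10 was 8.90 without uterus replicate 1, 3.95 without uterus replicate 2 and 8.57 with free RNA subtracted.

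Dusp6 (ENSMUSG00000019960, chr10:99263231-99267489) was highest in blood endothelium, with 207 and 291 CPM in the oviduct and 179 and 184 CPM in the uterus. The libraries did not overlap, but the difference was not called (0.48 ± 0.16, adjusted p = 0.14, edgeR). In epithelium it had 29.8 and 40.3 CPM in the oviduct and 19.0 and 6.83 CPM in the uterus, and passed the test (1.67 ± 0.33, adjusted p = 0.0019, edgeR). Leaving out uterus replicate 1 gave 2.45, and leaving out uterus replicate 2 gave 1.06. Mesenchymal Dusp6 overlapped between the organs, at 9.92 and 11.7 CPM against 11.1 and 8.99 CPM and was not called (0.03 ± 0.13, adjusted p = 0.88, edgeR). In smooth muscle it was lower in the oviduct, at 2.64 and 5.92 CPM against 7.39 and 7.94 CPM (-0.89 ± 0.28, adjusted p = 0.0317, edgeR). That call was lost with DESeq2, without the filter on low counts, without oviduct replicate 1 (-0.40) and without uterus replicate 2 (-0.81), and over cells whose class and cluster agreed the difference was -1.65, with cells picked by cluster -1.50 and without oviduct replicate 2 -1.54. In myeloid cells 4 libraries had 102, 89.0, 55.2 and 33.1 CPM from 74, 44, 22 and 12 UMIs.

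A list of 16 immediate early and stress genes was compared between the organs in the same classes. In mesenchyme, where 45.9% of all genes tested were called, 16 of the 16 were called, 14 of them higher in the oviduct. Their summed level was 9896 and 12095 CPM in the oviduct and 3845 and 5119 CPM in the uterus. In epithelium 14 were called (22.1% of all genes), 12 higher in the oviduct, and the sum was 11103 and 12903 CPM against 5447 and 4624 CPM. In smooth muscle 12 were called (30.7% of all genes), 10 higher in the oviduct, and the sum was 7340 and 10214 CPM against 3957 and 5625 CPM. In pericytes 10 were called beside 6% of all genes, 9 higher in the oviduct (6851 and 7422 CPM against 4397 and 5380 CPM), and in blood endothelium 12 beside 3.08%, 10 higher in the oviduct (4327 and 5556 CPM against 2509 and 3241 CPM). In mesothelium 1 was called (6.92% of all genes), and the sums of 12398 and 18988 CPM overlapped with 9532 and 15259 CPM. In myeloid cells 1 was called (0.349% of all genes), with 6470 and 7933 CPM against 6459 and 4567 CPM. The part of these genes in the organ differences of Spry2, Spry4 and Dusp6 was not tested.

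**Figure D3:**
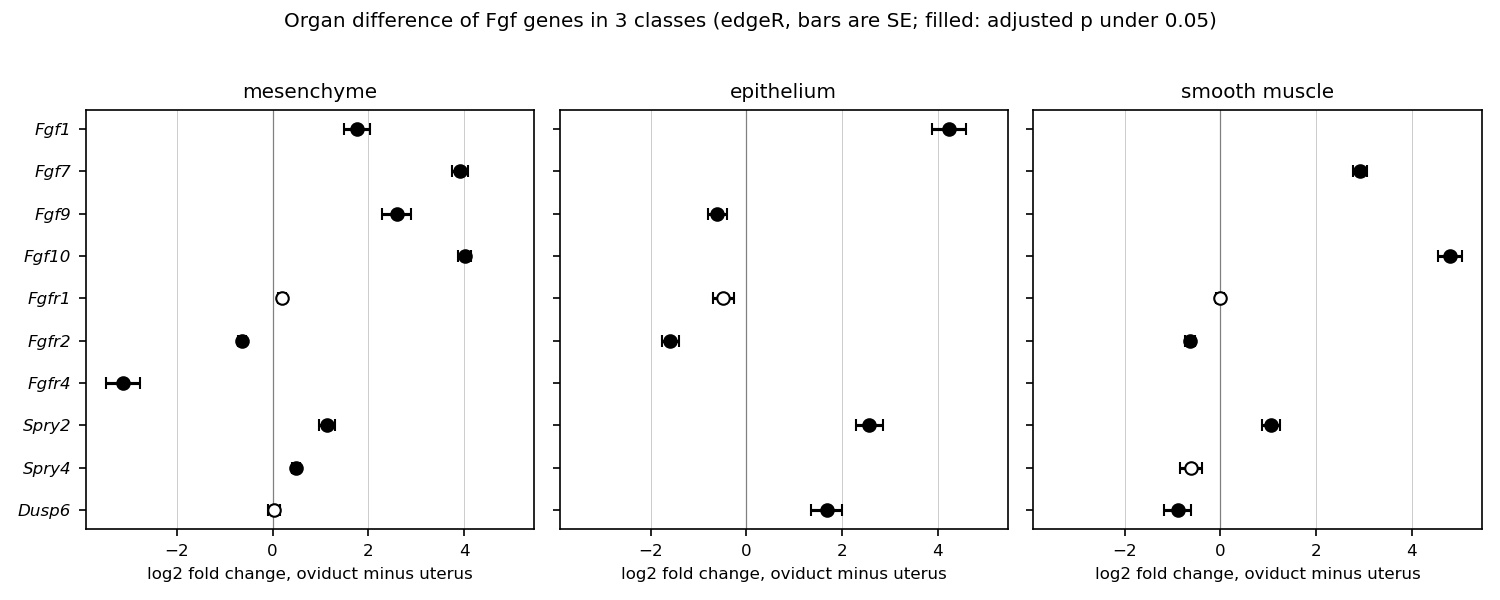
Log2 fold change, oviduct minus uterus, of the 10 genes in mesenchyme, epithelium and smooth muscle, with SE as bars, filled symbols for adjusted p under 0.05 and open symbols for the rest. Genes not tested or with under 4 UMIs in an organ are left out. Fgf10 and Fgf7 stand at 4.02 and 3.91 in mesenchyme and Fgfr2 at -1.59 in epithelium.

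Since the genes were chosen with earlier results known, the shares here and below cannot show that Fgf genes differ more than others. Of the 10 genes, 8 were called between organs in mesenchyme (6 higher in the oviduct), where 45.9% of all genes tested were called. Among the 8, Fgfr4 passed the filter on low counts through the uterus only. Fgf9 needed the oviductal libraries to pass it. The median difference of the 10 was 0.81 against -0.0013 over all genes. Over cells whose class and cluster agreed Fgf1 and Fgf9 lost the call, beside 6354 of 14512 genes called. With cells picked by cluster Fgf1 and Spry4 lost it, beside 6294 of 15460. In epithelium 6 of the 7 tested were called (4 higher in the oviduct) beside 22.1% of all genes, with a median of 1.67 against 0.0063. The call of Spry4 is among these, with 159 oviductal UMIs and 1 uterine UMI, and it passed the filter on low counts through the oviduct only. Fgf1, with 3 and 6 uterine UMIs, also needed the oviductal libraries to pass it. In smooth muscle 5 of 7 were called beside 30.7%, with a median of -0.0050 against -0.0073. Fgf10 is among these and needed the oviductal libraries to pass the filter. In mesothelium 2 of 8 were called beside 6.92%. Fgf10, with 84 oviductal and 0 uterine UMIs, is 1 of these and passed the filter through the oviduct only. Too few UMIs to be tested were counted for Fgf7, Fgf10 and Fgfr4 in epithelium, for Fgf1, Fgf9 and Fgfr4 in smooth muscle, for Fgf7 and Fgfr4 in mesothelium, for Fgf7, Fgf9, Fgf10 and Fgfr4 in blood endothelium, for the 4 ligands and Fgfr4 in pericytes, and for every member but Dusp6 in myeloid cells. None of the members tested was called by edgeR in pericytes (5 tested, 6% of all genes called), blood endothelium (6 tested, 3.08%) or myeloid cells (1 tested, 0.349%). In those classes 1, 3 and 1 had an unadjusted p under 0.05, and DESeq2 called 0. Leaving out 1 library moved single log2 fold changes in these classes. Without oviduct replicate 1, Spry2 and Spry4 in pericytes were 0.84 and 0.54, and Dusp6 in blood endothelium was 0.70. Without uterus replicate 1 Dusp6 in myeloid cells was 1.45, and without uterus replicate 2 Spry2 in pericytes was 0.97.

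Epithelium and mesenchyme were then compared within each organ, with library as a term. In the oviduct 9 of 10 genes were called, 5 higher in epithelium, beside 66.5% of all genes. In the uterus 9 of 10 were called, 3 higher in epithelium, beside 48.8%. Both counts include Fgf10, for which only bounds are given. Fgf1 was higher in epithelium by 4.09 ± 0.16 in the oviduct and by 1.53 ± 0.62 in the uterus (adjusted p = 0.0367, edgeR), where 9 UMIs were counted and the call was lost without the filter on low counts (adjusted p = 0.052) and without oviduct replicate 2 (1.53), uterus replicate 1 (1.76) or uterus replicate 2 (1.32). The uterine calls of Fgf7 and Fgfr4 rest on 1 epithelial UMI each and that of Fgf10 on 0, and all 3 were lost with DESeq2. The Fgf7 call was also lost with RLE factors, with free RNA subtracted, and without either oviduct replicate or uterus replicate 1, and the Fgfr4 call with cells picked by cluster and without oviduct replicate 1 or either uterus replicate. Fgf9 was higher in epithelium by 4.00 ± 0.15 in the oviduct and by 7.09 ± 0.23 in the uterus on the log2 scale. Over cells whose class and cluster agreed the Fgf9 values were 5.84 and 7.21, and with cells picked by cluster 5.97 and 7.63. Under the same 2 choices of cells the oviductal value of Fgf1 was 5.40 and 5.48. Fgfr2 was higher in epithelium by 1.45 ± 0.11 and 2.31 ± 0.11. Fgfr1 was lower in epithelium by -1.85 ± 0.12 in the oviduct and -1.23 ± 0.14 in the uterus. Spry2 changed sides, at 0.49 ± 0.10 in the oviduct and -1.04 ± 0.21 in the uterus, although the oviductal call was lost without oviduct replicate 2 (0.36). Dusp6 was higher in oviductal epithelium by 1.71 ± 0.14 and was not called in the uterus (-0.0027 ± 0.27, adjusted p = 0.997, edgeR).

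**Figure D4:**
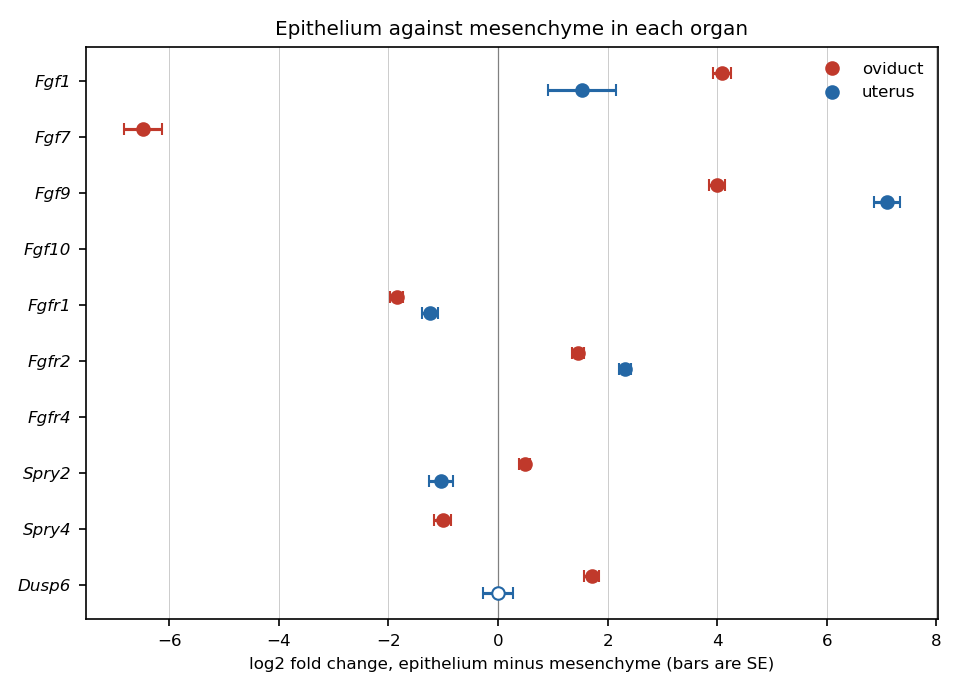
Log2 fold change, epithelium minus mesenchyme, of the 10 genes in the oviduct (red) and the uterus (blue), with SE as bars and an open symbol where adjusted p was not under 0.05. Values with under 4 UMIs in a class are left out. Spry2 lies at 0.49 in the oviduct and at -1.04 in the uterus, and Fgf9 at 4.00 and 7.09, which were 5.84 and 7.21 over cells whose class and cluster agreed.

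The organ effect itself differed between epithelium and mesenchyme for 7 of the 10 genes by the interaction test, beside 20.1% of all genes. Fgf1, Spry2, Spry4 and Dusp6 had the larger oviductal excess in epithelium, by 2.56 ± 0.54 for Fgf1 (adjusted p = 0.00033), 1.53 ± 0.24 for Spry2 (adjusted p = 2.29e-06) and 1.71 ± 0.28 for Dusp6 (adjusted p = 7.97e-06, all edgeR). For Fgfr2 the interaction was -0.86 ± 0.15 (adjusted p = 3.05e-05, edgeR): the uterine excess was larger in epithelium. Fgf9 had an interaction of -3.10 ± 0.32, which was -1.37 (adjusted p = 0.015) over cells whose class and cluster agreed and -1.66 with cells picked by cluster. The Fgf1 interaction was 3.90 and 3.82 in these cells. For Fgfr1 it was -0.61 ± 0.19 (adjusted p = 0.0176, edgeR), a call lost without oviduct replicate 1 (-0.50) or uterus replicate 2 (-0.59). Spry4 rests on 1 uterine epithelial UMI, and its fitted interaction of 4.79 ran from 3.52 without uterus replicate 2 to 10.02 without uterus replicate 1.

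Among 53 further genes of the pathway, 39 were tested in mesenchyme and 26 were called, 20 of them with the higher level in the oviduct, beside 45.9% of all genes. In epithelium 14 of 33 were called, 12 higher in the oviduct, beside 22.1% of all genes, and in smooth muscle 16 of 38, 11 higher in the oviduct, beside 30.7%. Dusp5, a nuclear ERK phosphatase, was higher in the oviduct in all 3 classes, with means of 348 ± 62.4 and 29.3 ± 0.665 CPM (SD, n = 2) in epithelium and 83.0 ± 2.07 and 17.9 ± 2.47 CPM in mesenchyme. Il17rd, an inhibitor of Fgf signalling, had 77.5 ± 20.1 and 12.7 ± 2.85 CPM in epithelium. Fgf18, a ligand, was higher in oviductal mesenchyme (12.2 ± 1.54 against 3.96 ± 0.209 CPM) and smooth muscle (14.99 ± 1.20 against 2.83 ± 0.913 CPM). Etv5, an ETS target of the pathway, was lower in oviductal mesenchyme (7.22 ± 0.0475 against 16.1 ± 2.15 CPM, log2 fold change -1.22 ± 0.11) and smooth muscle (-1.94 ± 0.19). Flrt3, a membrane protein that binds Fgf receptors, was lower in the oviduct in all 3 classes, by -0.60, -1.28 and -1.40 on the log2 scale in mesenchyme, epithelium and smooth muscle. Flrt1 was higher in oviductal mesenchyme (2.13 ± 0.15) and epithelium (4.36 ± 0.46, on 4 uterine UMIs), Flrt2 was lower in oviductal epithelium (-2.09 ± 0.24), Gpc6 in oviductal mesenchyme (-0.70 ± 0.09) and Spred1 in oviductal smooth muscle (-0.59 ± 0.09), and Etv1 was higher in oviductal smooth muscle (1.79 ± 0.12, all called by edgeR).

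Over the 28 sums of class and library, the level of Fgf10 was most like that of Angptl1 (Pearson r = 0.950, log2(CPM + 1)), Plcxd3 and Brinp3. Fgf7 was most like Syt1 (0.916) and Sfrp4 (0.898). Fgf9 was most like Krt7 (0.985) and Krt19 (0.968), which were among the class markers, and Fgf1 most like Fah (0.938). Fgfr2 was most like Serinc2 (0.909), Fgfr1 like Wee1 (0.901) and Fgfr4 like Rxfp1 (0.693). Among feedback genes Dusp6 was most like Afap1l1 (0.947), Spry2 like Hes1 (0.917) and Spry4 like Gng11 (0.909). Sums of a library share its depth, so these are descriptions with no p.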

How the data were processed

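Single-cell UMI counts of 2 oviduct and 2 uterus libraries were analysed as the authors deposited them: whole-number counts per gene and barcode, from Cell Ranger (6.0.1 for called cells, 4 for all barcodes, per the file headers). The submitters' processing notes name mm10 and Seurat 4.2.3, whose role is not given in the sources used here. The 10 genes and all lists were chosen with earlier results of these data known.

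Cells needed at least 500 genes and no more than 15% mitochondrial UMIs, and high Scrublet scores were removed (scanpy 1.11.5). Classes came from 5 to 8 markers each. Cells between mesenchyme and muscle, and cells of no class, were left out. Counts were summed per class and library and tested with edgeR 4.0.16 (TMM, filterByExpr, quasi-likelihood, no replicate block; call at adjusted p under 0.05), a step tested on simulated data. DESeq2 1.42.0, other cell choices, subtraction of free RNA (droplets of at most 100 UMIs) and each library left out were alternatives. Reads of genes that overlap on the opposite strand (Fam227b in Fgf7, Gm16263 in Fgf10, Gm16159 in Fgfr1) had 16, 33 and 7 mesenchymal UMIs. Replicates differed by more than sampling noise (chi-square per degree of freedom 18.8 and 6.54). Intervals and limits at 0 counts cover counting error only. Further named genes were at most 3 per direction and class, called, with a mean of at least 5 CPM and no overlap of organs.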

Additional observations from a re-analysis of the deposited data

Results flagged for a closer look

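The organ effect of 7 of the 10 Fgf genes differed between epithelium and mesenchyme by a test of the difference itself (edgeR quasi-likelihood interaction test, log2 scale, epithelium minus mesenchyme of oviduct minus uterus). It was 2.56 for Fgf1, -3.10 for Fgf9, -0.61 for Fgfr1, -0.86 for Fgfr2, 1.53 for Spry2, 4.79 for Spry4 and 1.71 for Dusp6. The Spry4 value is a fitted one that rests on 1 uterine epithelial UMI, and it was 3.52 without uterus replicate 2, 10.02 without uterus replicate 1 and 9.77 with free RNA subtracted. Over cells whose class and cluster agreed and with cells picked by cluster, the Fgf9 value was -1.37 and -1.66 and the Fgf1 value 3.90 and 3.82. The Fgfr1 value lost its call with DESeq2 (adjusted p = 0.12), when cells were picked by cluster (0.075), without oviduct replicate 1 (0.20) and without uterus replicate 2 (0.11).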

How the results depend on the processing

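Over the alternatives run, 872 member values were recomputed: 846 kept their direction, 33 lost and 17 gained a call, and 26 changed sign. The 26 were values that had not been called. Fgf10 was left out of this tally between organs in mesothelium, between epithelium and mesenchyme of each organ, and in the interaction, since a group had 0 UMIs. Its lost calls given above are therefore not among the 33. For Dusp6 in mesenchyme they were -0.036 over cells whose class and cluster agreed, -0.16 with cells picked by cluster, -0.073 without oviduct replicate 2 and -0.11 without uterus replicate 2 (range over left-out libraries -0.11 to 0.16). For Dusp6 between epithelium and mesenchyme of the uterus they were 0.035 (DESeq2), 0.063 (RLE), 0.018 (agreeing cells), 0.12 (clusters), 0.021 (free RNA subtracted), 0.091 (without oviduct replicate 1) and 0.47 (without uterus replicate 2; range -0.55 to 0.47). Fgfr1 in smooth muscle became 0.010 (agreeing cells), 0.20 (clusters), 0.0084 (no filter), 0.039 (without oviduct replicate 1) and 0.047 (without uterus replicate 1; range -0.053 to 0.047), and Spry4 there 0.072 (clusters). In pericytes Fgfr1 became 0.19 (doublets kept) and 0.12 (without uterus replicate 1; range -0.35 to 0.12), Fgfr2 0.0033 (without oviduct replicate 1; -0.57 to 0.0033), Spry4 -0.11 (without oviduct replicate 2; -0.11 to 0.54) and Dusp6 0.14 (without uterus replicate 2; -0.17 to 0.14). In mesothelium Fgfr1 became -0.012 (free RNA subtracted) and -0.10 (range -0.10 to 0.17) and Spry4 -0.47 (-0.47 to 1.34), both without uterus replicate 1, and the interaction of Fgf7 became 1.64 without uterus replicate 2 (-5.18 to 1.64). The cause was not tested.

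The labels do not say that same-numbered libraries share a pool of neonates, and the deviations of same-numbered sums correlated by 0.14 in mesenchyme, 0.19 in smooth muscle, 0.098 in mesothelium, 0.0015 in pericytes, -0.092 in epithelium, -0.088 in blood endothelium and -0.12 in myeloid cells. With the replicate block, which assumes that pairing, the members called were 8 in mesenchyme, 5 in epithelium, 6 in smooth muscle, 3 in mesothelium and 1 in pericytes, where the share of all genes called went from 45.9 to 47.0%, 22.1 to 19.2%, 30.7 to 34.6%, 6.92 to 12.1% and 6 to 7.38%: Fgf9 in epithelium lost its call, Spry4 in smooth muscle and Spry2 in pericytes and mesothelium gained one, and no other call of a member changed. In pericytes 1 was also called with doublets kept (Fgf7, which the main choice of cells left untested) and 1 with no filter (Spry2). In mesothelium 1 was called with DESeq2, which gave Fgf10 no adjusted p, and 1 with free RNA subtracted, where Fgf10 was not tested. Between epithelium and mesenchyme of the uterus DESeq2 called 6. Leaving out each library gave 0 to 2 called in pericytes, 1 to 2 in mesothelium, 0 to 1 in blood endothelium and 0 to 1 in myeloid cells. The organ difference in the share of cells with a UMI followed the depth: 10.0 percentage points for Fgf10 at 5000 UMIs, 5.96 at 3000 and 18.1 unthinned, and 9.27, 5.78 and 16.6 for Fgf7. The uterine myeloid class was small, with 48 and 32 cells, as was the uterine epithelium, with 57 and 77 cells, and Fgfr4 was scarce.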
